A study of Mus musculus with 8 samples.

Results

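Tnf, Lta and Ltb are the genes of tumour necrosis factor, lymphotoxin-alpha and lymphotoxin-beta. They are 3 of the 8251 genes that the array's annotation names from a probe set with a single symbol. Every probe set with 1 of the 3 symbols was taken, 4 of 12488 in all: 102629_at for Tnf, 102940_at for Ltb, and 102630_s_at and 100327_at for Lta. All 4 were bright enough to be tested. Their levels were followed in 4 groups of 2 arrays of sorted mouse follicular (FO) B cells. The groups were IgMG cells with hen egg lysozyme (HEL), IgMG cells left unstimulated, IgM cells with HEL and IgM cells left unstimulated. In all 4 groups the B cell receptor was directed against HEL. IgM cells carried it as IgM, and IgMG cells as a chimera with the extracellular spacer, the transmembrane segment and the cytoplasmic tail of IgG1. No array came from 1 mouse alone: IgM arrays pooled 2 or 4 mice and IgMG arrays 5 to 8, so that the receptor and the number of mice pooled cannot be told apart. The sources used here do not give how long HEL was applied or the age and strain of the mice.

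Tumour necrosis factor acts as a trimer, first on the cell surface and then shed from it, and binds the receptors encoded by Tnfrsf1a and Tnfrsf1b. Lymphotoxin-alpha is secreted as a homotrimer that binds the same receptors, or is held at the surface in a complex with lymphotoxin-beta that binds the lymphotoxin-beta receptor, Ltbr. In B cells the surface complex is known for its part in the upkeep of follicular dendritic cell networks and follicles in the spleen and lymph nodes. Receptor binding recruits TRAF adaptors and activates NF-kB, and Tnf messenger RNA is short-lived because AU-rich elements in it are bound by decay factors such as tristetraprolin, the product of Zfp36.

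The 3 genes are neighbours in the major histocompatibility complex on mouse chromosome 17. In the GRCm38.p6 annotation from RefSeq, Ltb lies on the plus strand at chr17:35194507-35196305, Tnf on the minus strand at chr17:35199367-35202007 and Lta on the minus strand at chr17:35203165-35205578. The span from Ltb to Lta is 11072 bases, with 3061 bases between Ltb and Tnf and 1157 between Tnf and Lta. The 250 bases before the annotated start of Tnf and of Ltb are shown because these were the 2 members whose signal changed with HEL, in opposite directions. They are printed 5′ to 3′ on each gene's own strand, at chr17:35202008-35202257 (minus) for Tnf and chr17:35194257-35194506 (plus) for Ltb, from RefSeq on GRCm38.p6. Capitals in the Tnf sequence mark 3 copies of the core motif of NFAT factors, read on the opposite strand, and a TATA box. Capitals in the Ltb sequence mark the kappa enhancer motif of NF-kB, read on the opposite strand.
Tnf promoter: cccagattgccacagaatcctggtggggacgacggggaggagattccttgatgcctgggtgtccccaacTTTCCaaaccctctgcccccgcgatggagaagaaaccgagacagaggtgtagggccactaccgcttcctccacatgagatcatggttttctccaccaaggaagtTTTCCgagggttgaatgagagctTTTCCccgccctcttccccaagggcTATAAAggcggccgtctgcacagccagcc
Ltb promoter: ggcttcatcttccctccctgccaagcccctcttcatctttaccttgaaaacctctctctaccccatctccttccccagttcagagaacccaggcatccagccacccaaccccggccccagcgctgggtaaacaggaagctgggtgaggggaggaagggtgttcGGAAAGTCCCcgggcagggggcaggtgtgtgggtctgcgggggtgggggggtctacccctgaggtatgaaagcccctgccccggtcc

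Both windows were searched on both strands for these motifs. The NF-kB motif was searched as the 10 letters that stand in capitals in the Ltb sequence. NFAT was searched by its core GGAAA. The TATA box was searched as TATAAA itself. AP-1 was searched as TGAGTCA here. Egr factors were searched as GCGNGGGCG with any base at the N. The NF-kB letters stood in the Ltb window from base -87 to -78, counted back from the start, and were found in 46 of 32851 annotated promoter windows (0.140%). They overlap the one NFAT core match of that window, at -87 to -83. The Tnf window held the NFAT core at -181, -77 and -54 and TATAAA at -29 to -24, which 55.6% and 12.4% of promoter windows also held. AP-1 letters (4.46% of windows) and Egr letters (4.70%) were in neither window. These matches describe the letters in these windows and no binding was measured.

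The deposited value was 1 intensity per probe set and array, called the signal here, on a linear scale. Probe sets differ in brightness for the same amount of RNA, so levels are compared between arrays and never between genes. Changes are differences of log2(signal + 16), a scale on which the changes of dim probe sets come out too small, with the standard error (SE) and the p-value of limma, adjusted over 7453 tested probe sets and called below 0.05. With 2 arrays a group, an exact permutation test cannot go below p = 0.333. The labels do not say that the 2 arrays of a group came from separate mice, so p-values measure the spread between these arrays.

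Arrays differed in RNA integrity and in markers of other cells. The ratio of the Gapdh 5′ to 3′ control signals, a sign of RNA integrity, was 0.755 on IgM HEL array 2 and 0.140 to 0.395 on the other 7. A higher ratio goes with more intact RNA. With HEL it was 0.221 and 0.140 on the IgMG arrays, the lowest of all, against 0.328 and 0.755 on the IgM arrays. Receptor and RNA integrity thus cannot be told apart in the groups with HEL. Summed NK markers were higher on all 4 IgMG arrays than on any IgM array: 824 and 999 in IgMG cells with HEL and 525 and 3633 unstimulated, against 339 to 457 on the 4 IgM arrays. Summed myeloid markers were 10836 and 11007 in IgMG cells with HEL, against 5487 and 8111 in IgM cells with HEL, and 6800 and 20667 in unstimulated IgMG cells, against 7497 and 8501 in unstimulated IgM cells. Both sums were highest on unstimulated IgMG array 2. Summed erythroid markers were 17481 and 21413 in IgMG cells with HEL, against 14484 and 17088 in IgM cells with HEL. Unstimulated, they were 13250 and 19903 in IgMG cells, against 15283 and 17810 in IgM cells. The 2 arrays, IgM HEL 2 and unstimulated IgMG 2, stood apart, and results are also given without them. All 9 B cell markers on the array were bright enough to be tested, with a summed signal of 21912 to 27626. No listed marker of any other cell type was at 0 on all arrays. This does not show that such cells were present, since very dim probe sets also read above 0.

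Tnf signal was higher with HEL in cells of either receptor. In IgMG cells it was 191.8 and 201.0 with HEL, against 53.4 and 74.2 unstimulated. In IgM cells it was 246.7 and 345.8 with HEL, against 74.4 and 57.2 unstimulated. Every HEL array was above every unstimulated array, and the 4 unstimulated arrays of both receptors lay within 1 narrow range.

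Expressed as a change, Tnf rose by 1.42 ± 0.23 (SE) on the log2 scale in IgMG cells, with a 95% interval of 0.90 to 1.95 and limma adjusted p = 0.0125. The mean signal was 196.4 ± 6.51 with HEL and 63.8 ± 14.7 unstimulated (SD, n = 2 each), a ratio of 3.08. In IgM cells Tnf rose by 1.92 ± 0.23 (SE), with a 95% interval of 1.39 to 2.45 and limma adjusted p = 0.00132. The mean signal was 296.2 ± 70.1 with HEL and 65.8 ± 12.2 unstimulated (SD, n = 2 each), a ratio of 4.50. In these pooled cells, a change in the number of cells that make Tnf and a change in the RNA per cell cannot be told apart.

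Ltb did the opposite: its signal with HEL was close to 47% of the unstimulated signal in cells of either receptor. In IgMG cells it was 3565.5 and 3332.6 with HEL, against 6978.9 and 7701 unstimulated. In IgM cells it was 2970 and 3894.7 with HEL, against 7332.3 and 7242 unstimulated. The HEL and unstimulated arrays did not overlap, and the groups of the 2 receptors overlapped each other in either state.

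Ltb fell by 1.09 ± 0.15 (SE) on the log2 scale in IgMG cells, with a 95% interval of -1.42 to -0.75 and limma adjusted p = 0.00515. The means were 3449 ± 165 with HEL and 7340 ± 511 unstimulated (SD, n = 2 each), a ratio of 0.470. In IgM cells it fell by 1.10 ± 0.15 (SE), with a 95% interval of -1.43 to -0.76 and limma adjusted p = 0.00226. The means were 3432 ± 654 with HEL and 7287 ± 63.9 unstimulated (SD, n = 2 each), a ratio of 0.471.

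Lta, which encodes the partner of lymphotoxin-beta in the surface complex, passed the test with neither of its probe sets. On 102630_s_at, whose suffix marks a probe set shared by several transcripts, the signal in IgMG cells was 241.2 and 255.4 with HEL, against 272.7 and 254.3 unstimulated. In IgM cells it was 275.4 and 260.2 with HEL, against 146.0 and 252.5 unstimulated. Array 1 of unstimulated IgM cells was the low one, and the other 7 arrays lay between 241.2 and 275.4.

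The log2 change of 102630_s_at was -0.080 ± 0.24 (SE) in IgMG cells, with limma adjusted p = 0.886, and 0.44 ± 0.24 in IgM cells, with limma adjusted p = 0.253. The HEL and unstimulated arrays of IgM cells did not overlap on this probe set. The dimmer 100327_at read 38.9 and 49.2 with HEL and 27.1 and 42.4 unstimulated in IgMG cells, and 62.6 and 42.2 with HEL and 49.6 and 28.6 unstimulated in IgM cells. Its groups overlapped, with log2 changes of 0.25 ± 0.31 in IgMG cells (95% interval -0.44 to 0.95) and 0.32 ± 0.31 in IgM cells (-0.37 to 1.02). Over the 8 arrays the 2 Lta probe sets had a Pearson r of -0.22, so they gave no common course for Lta.

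Of the 3 genes, 1 rose and 1 fell in each receptor. Among all tested probe sets, HEL raised 3.10% and lowered 2.29% in IgMG cells, 5.39% together, and raised 6.70% and lowered 7.27% in IgM cells, 14.0% together. The 402 calls in IgMG cells split into 231 higher and 171 lower, or 233 higher and 97 lower with arrays centred on their median. Tnf and Ltb kept their calls in IgM cells with each of the 8 arrays left out in turn. In IgMG cells the call of Tnf was lost without IgMG HEL 1 (adjusted p = 0.0819) or IgMG HEL 2 (0.125), with the log2 change at 1.46 and 1.39, and the call of Ltb was lost without IgMG HEL 2 (0.0758), with the change at -1.04.

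**Figure D1:**
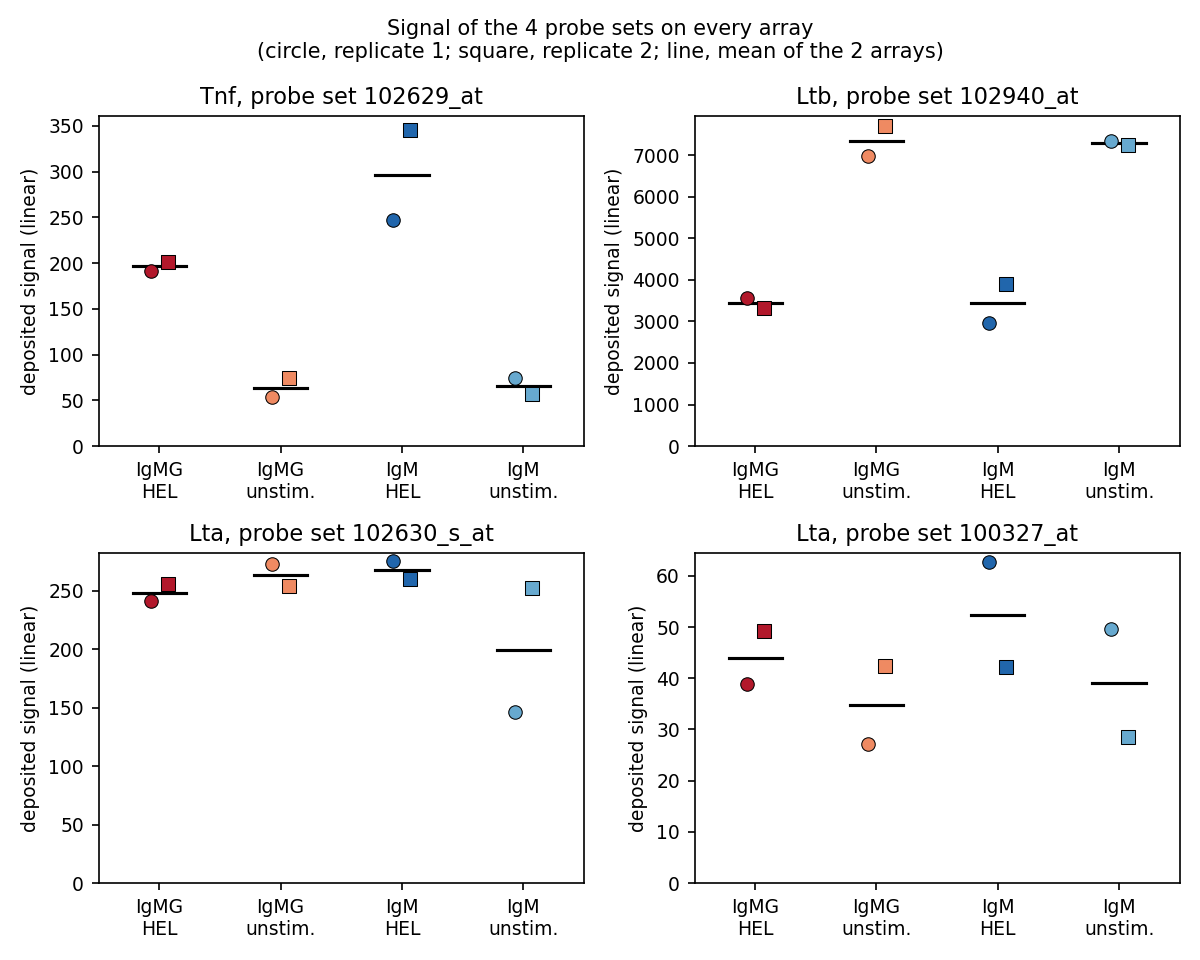
Deposited signal on a linear axis from 0, 1 panel per probe set, with a circle for array 1, a square for array 2 and a line at the mean of each group. Tnf is at 191.8 to 345.8 on HEL arrays and 53.4 to 74.4 on unstimulated ones, Ltb at 2970 to 3894.7 and 6978.9 to 7701, and the Lta groups lie close together except for 1 low unstimulated IgM array on 102630_s_at.

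The next question was whether the receptor's IgG1 part altered these levels. With HEL, the Tnf signal of the IgMG arrays, 191.8 and 201.0, was below that of the IgM arrays, 246.7 and 345.8, a ratio of 0.663. The log2 difference was -0.54 ± 0.23 (SE), with a 95% interval of -1.07 to -0.010, an unadjusted p = 0.0466 and limma adjusted p = 0.349, so it missed the threshold. Without stimulation it was -0.040 ± 0.23, with limma adjusted p = 0.995. In order of level, Tnf was highest in IgM cells with HEL, then in IgMG cells with HEL, then in unstimulated cells of either receptor, whose means of 63.8 in IgMG and 65.8 in IgM cells differed by less than their SD.

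The difference of the 2 HEL responses, IgMG minus IgM, was -0.50 ± 0.33 (SE) for Tnf, with a 95% interval of -1.24 to 0.25 and limma adjusted p = 0.601. The IgM array with the highest Tnf, 345.8, was also the one with the Gapdh ratio of 0.755. Without it and unstimulated IgMG array 2, the difference of responses was -0.078 and the difference with HEL was -0.31. With the Gapdh ratio as a covariate they were 0.023 and -0.0088. Both settings were added after seeing the data. Over all alternatives, the difference of responses for Tnf ranged from -0.73 to 0.023 and was below 0 in 18 of 19. The difference with HEL ranged from -0.77 to -0.0088 and was below 0 in all 20. A smaller Tnf response in IgMG cells thus kept its direction in most settings but missed the threshold, and is not shown by these arrays. The part of RNA integrity in the values was not tested further.

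Ltb levels of the receptors lay close together. The difference of responses was 0.011 ± 0.21 (SE), with a 95% interval of -0.46 to 0.48 and limma adjusted p = 0.990. With HEL, IgMG and IgM cells differed by 0.019 ± 0.15 (95% interval -0.32 to 0.35), and unstimulated by 0.0087 ± 0.15 (-0.33 to 0.34). Unstimulated cells of either receptor stood at the top of the order of Ltb levels and cells with HEL at the bottom, and within each state the receptors differed by less than the SD of the arrays.

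For Lta, the difference of responses was -0.52 ± 0.33 (SE) on 102630_s_at, with limma adjusted p = 0.585, and -0.068 ± 0.43 on 100327_at, with limma adjusted p = 0.971. In order, the 102630_s_at means were 267.8 in IgM cells with HEL, 263.5 in unstimulated IgMG cells, 248.3 in IgMG cells with HEL and 199.2 in unstimulated IgM cells, and each group overlapped the next. None of the 4 probe sets was called in the difference of responses, where 0% of tested probe sets were (750 had an unadjusted p under 0.05), nor between unstimulated IgMG and IgM cells, where 0% were (344 unadjusted). Between IgMG and IgM cells with HEL the members had no call either, against 0.0134% of all tested probe sets (1037 unadjusted).

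Several marker sets of other cells differed between the receptors in these comparisons. Between IgMG and IgM cells with HEL, 12 of 13 tested myeloid markers were higher (median log2 difference 1.11) and 6 of 6 tested NK markers (0.98), beside a median of -0.0033 over all tested probe sets. Unstimulated, 13 of 13 myeloid markers were higher in IgMG cells (0.65) and 6 of 6 NK markers (1.28), beside 0.0087 over all. These compare group means. The unstimulated myeloid sum was 20667 on IgMG array 2 but 6800 on IgMG array 1, below the IgM arrays (7497 and 8501). Of 6 tested erythroid markers, 6 were higher in IgMG cells with HEL (median 0.38) and 2 unstimulated (median -0.24). None of these markers was called, and their part in the receptor comparisons of Tnf, Lta and Ltb was not tested.

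**Figure D2:**
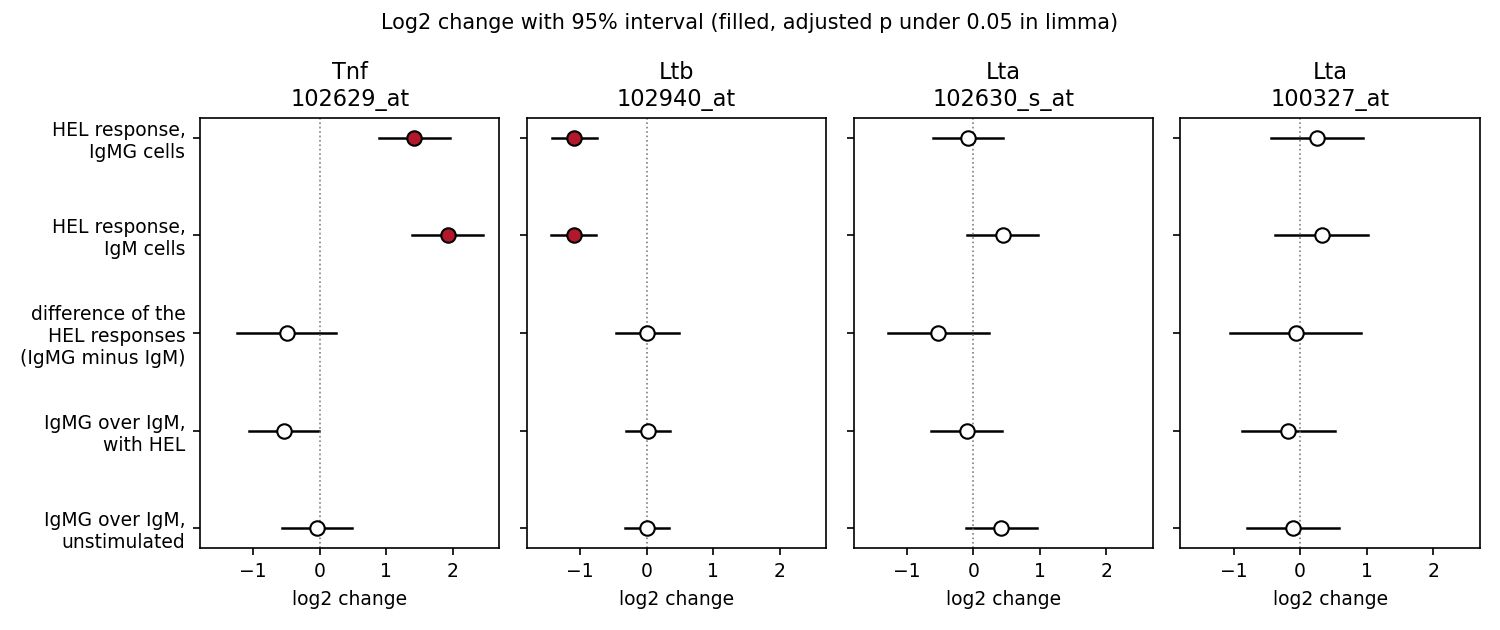
Log2 change (horizontal axis) of each member probe set in the 5 comparisons (rows), as a point with its 95% interval from limma, filled where the adjusted p was under 0.05. The filled points are the HEL responses of Tnf, at 1.42 in IgMG and 1.92 in IgM cells, and of Ltb, at -1.09 and -1.10, and every interval of a comparison between receptors other than that of Tnf with HEL includes 0.

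Markers of other cells were set beside these results. Summed T cell markers were 967 to 1069 in IgMG cells with HEL and 1462 to 1772 unstimulated, and 1001 to 1016 in IgM cells with HEL and 1571 to 1755 unstimulated, so they moved in the same direction as Ltb. Most of this sum was Cd2, which mouse B cells also express. Cd2 fell by 0.80 ± 0.17 (SE) in IgM cells, with limma adjusted p = 0.0184, and its change was -0.58 ± 0.17 in IgMG cells, with limma adjusted p = 0.0928. The other tested T cell markers were Zap70 and Cd4, and neither passed the threshold in either receptor. Zap70, a kinase of T cell receptor signalling, read 102.9 and 134.3 in IgMG cells with HEL, against 356.8 and 328.6 unstimulated, a log2 change of -1.42 ± 0.48 (limma adjusted p = 0.124), and its change in IgM cells was -1.10 ± 0.48 (limma adjusted p = 0.170). Cd4, the helper T cell coreceptor, had changes of 0.59 ± 0.51 in IgMG and 1.01 ± 0.51 in IgM cells, in the other direction. The part of these markers in the fall of Ltb was not tested. The defining T cell markers Cd3d, Cd3e, Cd3g, Cd8a, Cd8b1 and Cd28 were too dim to test, with means of 3.21 to 10.9 over all arrays. Of the 15 myeloid markers 13 were tested, and of 7 NK markers 6, and none was called in either HEL response. The 6 tested erythroid markers had no call either, with a median log2 change of 0.025 in IgMG and -0.77 in IgM cells. Single myeloid markers differed between the IgMG HEL arrays in both directions. Cd14 read 1005.2 on array 1 and 211.7 on array 2, and S100a8 read 870.9 and 2019. The cytokine gene Il1b read 692.6 and 106. The part of such cells in the rise of Tnf was not tested. On unstimulated IgMG array 2, where the NK and myeloid sums were highest, Tnf read 74.2, within the unstimulated range. This array gives no reading of such cells with HEL. Without this array and IgM HEL 2, Tnf was up by 1.61 in IgMG cells and by 1.69 in IgM cells, and Ltb fell by 1.01 and 1.29, with limma adjusted p of 0.00746, 0.00402, 0.00542 and 0.00140 in that order.

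**Figure D3:**
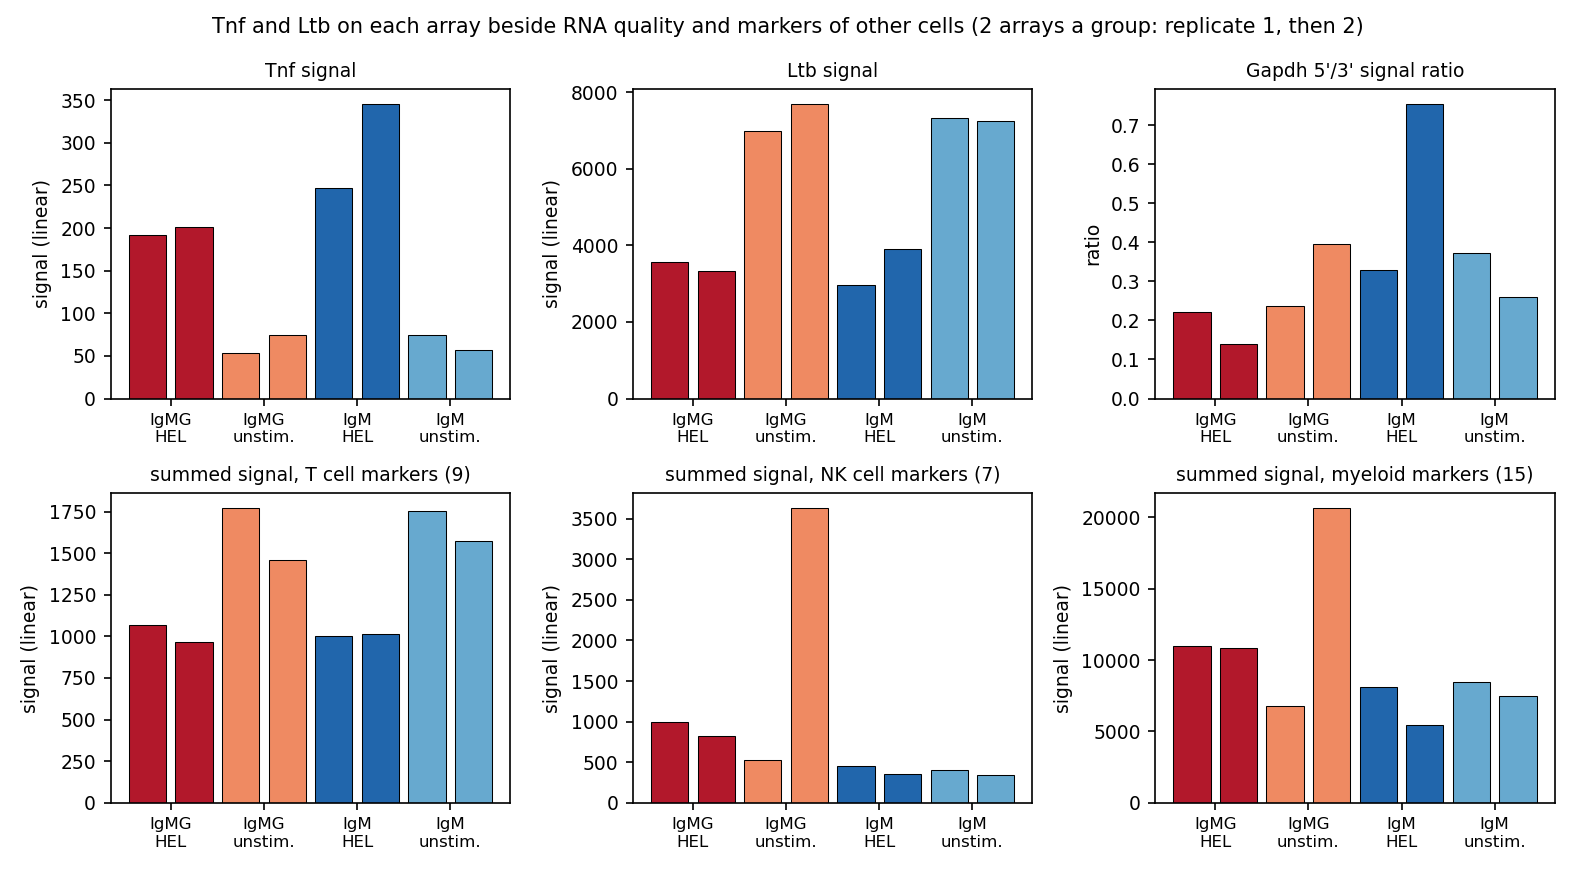
Bars from 0 give, for each array (replicate 1 then 2 in each group), the signals of Tnf and Ltb, the Gapdh 5′/3′ ratio and the summed signals of markers of T cells, NK cells and myeloid cells. IgM HEL array 2 has both the highest Tnf signal, 345.8, and the highest Gapdh ratio, 0.755, and unstimulated IgMG array 2 has the highest NK and myeloid sums.

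Other ligands of the family could not be tested. Of 17 listed TNF superfamily ligands 11 had a probe set, and the 3 that could be tested were Tnf, Lta and Ltb. The 8 others, Cd40lg, Cd70, Fasl, Tnfsf4, Tnfsf8, Tnfsf9, Tnfsf10 and Tnfsf11, were too dim on average, with mean signals of 3.77 to 21.6 over all arrays. Single readings reached 72.6 for Fasl and 52.5 for Cd70.

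Among 10 tested receptors of the family, 1 rose and 1 fell in IgMG cells, and 1 rose and 2 fell in IgM cells. Of all tested probe sets, 5.39% were called in IgMG and 14.0% in IgM cells. The median log2 change of the receptors was -0.29 in IgMG and 0.12 in IgM cells, beside -0.051 and -0.024 over all tested probe sets. Tnfrsf1b, the second TNF receptor, rose by 1.23 ± 0.23 (SE) in IgM cells, to 405.7 and 330.0, against 154.4 and 140.5 unstimulated (limma adjusted p = 0.0101). In IgMG cells it read 329.6 and 342.7 with HEL, against 161.3 and 263.2 unstimulated, a change of 0.66 that missed the threshold (limma adjusted p = 0.135) and passed without the 2 arrays that stood apart, at 0.99 (limma adjusted p = 0.0272). Tnfrsf1a, the first TNF receptor, was dim, with changes of -0.39 ± 0.53 in IgMG and 0.10 ± 0.53 in IgM cells. Ltbr, the receptor of the lymphotoxin complex, is known mainly from stromal and myeloid cells and was dim too, with changes of -0.47 and -0.86 that missed the threshold (limma adjusted p = 0.432 and 0.106).

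Tnfrsf18, which encodes the costimulatory receptor GITR, fell in both. It read 64.6 and 56.7 in IgMG cells with HEL, against 218.6 and 166.2 unstimulated, a log2 change of -1.43 ± 0.21 (limma adjusted p = 0.00695). In IgM cells it read 62.5 and 52.7 with HEL, against 133.7 and 128.1 unstimulated, so that it fell by 1.00 ± 0.21 (limma adjusted p = 0.0146). Cd40, the receptor of T cell help, fell by 0.85 ± 0.17 in IgM cells (limma adjusted p = 0.0120), with a change of -0.37 in IgMG cells that missed the threshold. Tnfrsf21, which encodes death receptor 6, rose by 1.10 ± 0.22 in IgMG cells (limma adjusted p = 0.0275). With single arrays left out, the receptor calls in IgM cells numbered 0 without either unstimulated IgM array and 1 without IgM HEL 2. Those in IgMG cells numbered 0 without IgMG HEL 2 and 1 without IgMG HEL 1 or unstimulated IgMG 1.

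Of 17 tested signalling genes downstream of the receptors, 0 rose and 2 fell in IgMG cells, and 2 rose and 5 fell in IgM cells. Over all tested probe sets the shares called were 5.39% in IgMG and 14.0% in IgM cells. The median log2 change of the signalling genes was -0.27 in IgMG and -0.20 in IgM cells. The adaptor genes of the TRAF family went in both directions. Traf1 read 186.0 and 152.6 in IgM cells with HEL, against 5.2 and 56.6 unstimulated, a rise of 2.23 ± 0.47 (SE; limma adjusted p = 0.0164), and in IgMG cells 199.5 and 170.8 with HEL, against 126.6 and 91.3 unstimulated, a change of 0.70 ± 0.47 that missed the threshold. The difference between these 2 responses was -1.54 ± 0.67, with limma adjusted p = 0.485. The signals with HEL were alike and those of unstimulated IgM cells were the low ones.

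Traf5 fell by 1.33 ± 0.27 in IgMG cells (limma adjusted p = 0.0260) and by 1.88 ± 0.27 in IgM cells (limma adjusted p = 0.00273). Its signal was 366.8 and 300.4 in IgMG cells with HEL, against 851.8 and 868.3 unstimulated, and 268.5 and 155.2 in IgM cells with HEL, against 663.3 and 958.9 unstimulated. Traf4 rose by 1.09 in IgM cells on its brightest probe set by mean log2 signal, while its other one missed the threshold at 0.64. Ikbkg, the regulatory subunit of the IkB kinase, fell by 1.19 in IgM cells on 1 probe set, while the other had a change of 0.17. Casp8, the caspase activated by death receptors, fell by 1.01 in IgM cells, and Tradd, the death domain adaptor of the first TNF receptor, fell by 0.74 in IgMG cells (limma adjusted p = 0.0430). Birc2 and Birc3, which encode the cIAP ubiquitin ligases, fell by 0.67 and 0.56 in IgM cells. They were named after their values were seen, and the second Birc2 probe set had a change of 0.73 that missed the threshold.

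The calls of signalling genes depended on single arrays. Without the 2 arrays that stood apart, 4 of the 7 calls in IgM cells were left, and 3 were called in IgMG cells. With 1 array left out, the calls in IgM cells numbered 2 without either unstimulated IgM array, 1 without IgM HEL 2 and 4 without IgMG HEL 2. In IgMG cells they numbered 0 without IgMG HEL 1, IgMG HEL 2 or unstimulated IgMG 2, and 1 without either unstimulated IgM array, IgM HEL 2 or unstimulated IgMG 1. In IgM cells Traf5 kept its call in all 8 of these fits, Traf1 lost it without IgM HEL 1 (adjusted p = 0.0711) or IgM HEL 2 (0.0808), with its change at 2.10 and 2.36. Its rise was 1.35 without unstimulated IgM 1 and 3.12 without unstimulated IgM 2, and kept its call in both.

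Genes of NF-kB subunits and inhibitors, parts of a pathway that these receptors and the B cell receptor activate, were called mainly as higher with HEL. Of 8 tested, 1 rose and 0 fell in IgMG cells (5.39% of all tested probe sets called), and 5 rose and 1 fell in IgM cells (14.0%). None of the 8 was called in the difference of responses. The median log2 change was 0.13 in IgMG and 0.88 in IgM cells. Nfkbiz, which encodes the nuclear inhibitor IkB-zeta, rose in both, to 507.4 and 382.2 in IgMG cells with HEL, against 107.1 and 134.4 unstimulated (1.75 ± 0.30, limma adjusted p = 0.0159), and to 667.7 and 355.7 in IgM cells with HEL, against 126.4 and 89.7 unstimulated (2.04 ± 0.30, limma adjusted p = 0.00360).

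In IgM cells Relb, the subunit used by the lymphotoxin-beta receptor pathway, rose by 1.46 ± 0.22 (limma adjusted p = 0.00359), Nfkbib, an inhibitor gene, by 1.22 ± 0.17 (limma adjusted p = 0.00254) and Nfkbia, the gene of IkB-alpha, by 0.83 ± 0.16 (limma adjusted p = 0.0105). Their changes in IgMG cells were 0.71, 0.37 and 0.24, none past the threshold. The dimmer second probe sets went the other way between the receptors, with changes of 0.41 in IgMG and -0.041 in IgM cells for Relb and of 0.67 in IgMG and 0.0069 in IgM cells for Nfkbia, none past the threshold. Rela, named after its values were seen, rose by 0.73 in IgM cells, and Bcl3, an atypical inhibitor gene, fell by 1.00. Rela lost its call in 6 of 8 fits with 1 array left out and with the Gapdh covariate (limma adjusted p = 0.131). Bcl3 lost its call in 4 of the 8 fits with 1 array left out. Nfkbib, Relb and Nfkbiz kept their calls in IgM cells in all 8 fits with 1 array left out. The calls of the list in IgM cells numbered 3 without unstimulated IgM 1 or IgM HEL 2, and 5 without both arrays that stood apart. The Nfkbiz call in IgMG cells was lost without IgMG HEL 1 (adjusted p = 0.107) or IgMG HEL 2 (0.0940).

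**Figure D4:**
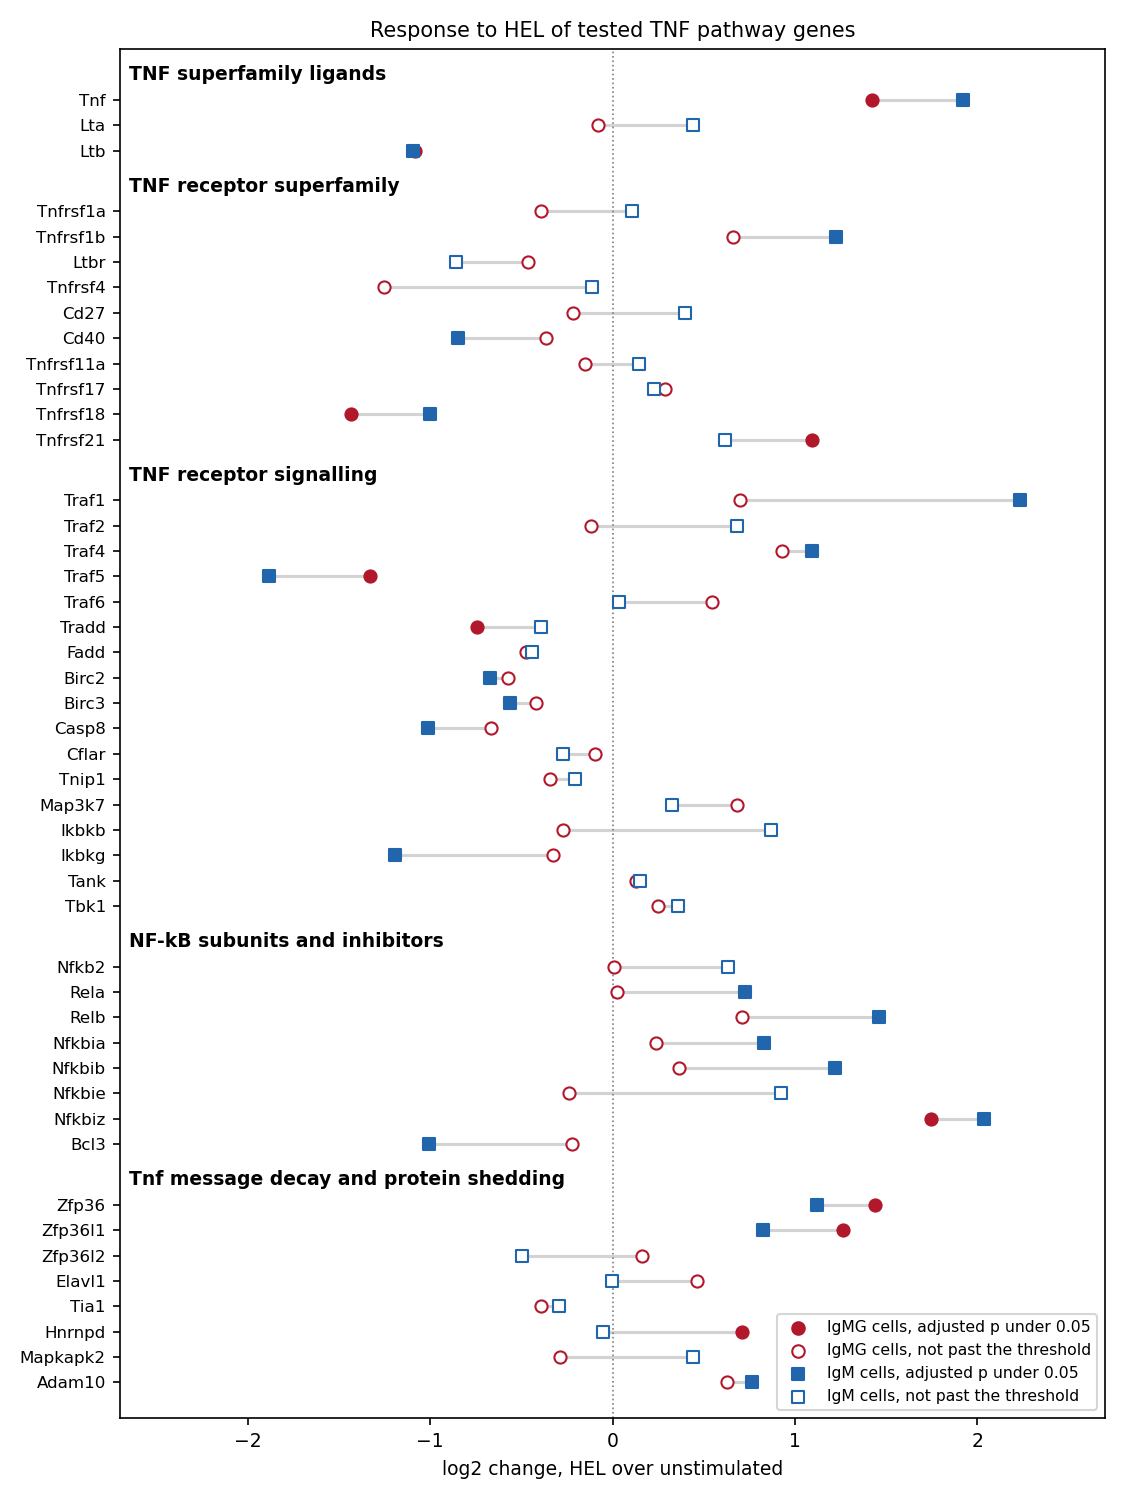
Log2 change with HEL (horizontal axis) of each tested gene of 5 lists (rows), circles for IgMG cells and squares for IgM cells, filled where limma's adjusted p was under 0.05 and joined by a line. Tnf, Nfkbiz, Zfp36 and Zfp36l1 rose and Ltb, Tnfrsf18 and Traf5 fell in both, and Traf1, at 0.70 and 2.23, has the widest gap between the receptors.

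Of 8 tested factors that are known to bind the Tnf promoter, 3 rose and 0 fell in IgMG cells, and 2 rose and 1 fell in IgM cells. The shares called over all tested probe sets were 5.39% in IgMG and 14.0% in IgM cells. Nfatc1, a calcium-dependent factor of the NFAT family, read 1080.9 and 1157.6 in IgMG cells with HEL, against 182.9 and 147.8 unstimulated, and 1569.1 and 1470.5 in IgM cells with HEL, against 158.5 and 198.0 unstimulated. It rose by 2.65 ± 0.18 in IgMG cells (limma adjusted p = 0.000115) and by 2.99 ± 0.18 in IgM cells (limma adjusted p = 4.71e-05). Egr1, an immediate-early factor, had rises of 4.46 ± 0.28 (IgMG cells) and 4.65 ± 0.28 (IgM cells). Sp1, a broadly expressed factor, rose by 0.91 ± 0.18 in IgMG cells (limma adjusted p = 0.0235), where its call was lost without either IgMG HEL array or unstimulated IgMG 1 (highest adjusted p = 0.171). Ets1 fell by 0.68 in IgM cells, at limma adjusted p = 0.0493, and lost this call in 5 of 8 fits with 1 array left out (adjusted p up to 0.246) and without both arrays that stood apart (0.199).

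Genes of Tnf message decay and protein shedding rose or missed the threshold. With either receptor 3 of 8 tested rose and 0 fell, beside 5.39% (IgMG) and 14.0% (IgM) of all tested probe sets called. The median log2 change of this list was 0.55 in IgMG and 0.22 in IgM cells. Zfp36, whose product binds AU-rich elements of Tnf messenger RNA and speeds its decay, read 1909.1 and 1755.3 in IgMG cells with HEL, against 689.2 and 639.2 unstimulated, and 1858.0 and 1691.5 in IgM cells with HEL, against 695.6 and 930.6 unstimulated. It rose by 1.44 ± 0.17 in IgMG (limma adjusted p = 0.00278) and 1.12 ± 0.17 in IgM cells (limma adjusted p = 0.00381), in all 8 fits with 1 array left out. Its relative Zfp36l1 rose by 1.27 ± 0.21 in IgMG cells and by 0.82 ± 0.21 in IgM cells. That call was lost without IgMG HEL 1 in IgMG cells (adjusted p = 0.0914), and in IgM cells without IgM HEL 1 or either unstimulated IgM array (highest adjusted p = 0.144).

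Hnrnpd, another binder of AU-rich elements, rose by 0.71 in IgMG cells at limma adjusted p = 0.0489, and missed the threshold with any 1 of the 8 arrays left out (adjusted p up to 0.311). Adam10, a shedding protease, rose by 0.76 in IgM cells (limma adjusted p = 0.0399), and lost the call without any 1 of the 4 IgM arrays or the 2 IgMG HEL arrays (highest adjusted p = 0.181). Adam17, the main protease that sheds Tnf, was too dim to test, with a mean signal of 19.1.

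Of 8 tested genes around the locus, 0 were called in IgMG cells and 0 rose and 1 fell in IgM cells. Beside the 5.39% and 14.0% of all tested probe sets called in IgMG and IgM cells, these counts do not set the neighbours apart. They had a median log2 change of -0.19 in IgMG and -0.0049 in IgM cells. Lst1, the next gene beside Ltb, had changes of -0.78 ± 0.32 in IgMG and -0.97 ± 0.32 in IgM cells, which missed the threshold (limma adjusted p = 0.196 and 0.0810). Its highest signal, 918.5, was on unstimulated IgMG array 2, where the myeloid markers were also highest, and without that array and IgM HEL 2 its changes were -0.26 and -0.68. The 1 call was Gpank1 on 1 probe set, at -0.68, which was not called on its 2 other probe sets and was lost without both arrays that stood apart (adjusted p = 0.154).

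Among 11 tested cytokine and chemokine genes, 2 rose and 2 fell with either receptor, beside 5.39% (IgMG) and 14.0% (IgM) of all tested probe sets called. Il16, a T cell chemoattractant, fell by 1.54 ± 0.22 in IgMG and 2.30 ± 0.22 in IgM cells, and Il12a, the p35 subunit shared by interleukin-12 and interleukin-35, by 1.11 ± 0.19 and 1.79 ± 0.19. Ccl3 and Ccl4, chemokines of activated B cells, rose. Ccl4 read 205.4 and 228.4 in IgMG cells with HEL, against 23.7 and 18.1 unstimulated, and 1471.9 and 1703.5 in IgM cells with HEL, against 19.6 and 3.1 unstimulated. Between IgMG and IgM cells with HEL, Ccl4 was lower by a log2 difference of -2.78 ± 0.28 (limma adjusted p = 0.0358), the 1 call of that comparison. The difference stayed between -2.89 and -2.52 under 20 alternatives, and 9 of them lost the call. With either IgM HEL array or either IgMG HEL array left out, the adjusted p was 0.0729 to 0.459, and without both arrays that stood apart it was 0.0985. For Tnf the same comparison gave -0.54. Without IgMG HEL 1 or IgMG HEL 2, 1 of the 4 list calls in IgMG cells was left.

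Tested genes linked to lymphotoxin action on stroma and follicular dendritic cells, which B cells may express as well, numbered 5. Beside 5.39% (IgMG) and 14.0% (IgM) of all tested probe sets called, 0 of them were called in IgMG cells and 1 rose in IgM cells. This was Icam1, an adhesion molecule, which read 284.5 and 251.9 in IgM cells with HEL, against 120.8 and 133.1 unstimulated. It rose by 0.99 ± 0.25 (limma adjusted p = 0.0309) and lost the call without any 1 of the 4 IgM arrays (adjusted p up to 0.157). In IgMG cells its change of 0.74 missed the threshold.

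Probe sets whose levels ran most like those of each member were looked up over the 8 arrays. Since the arrays form 4 groups, a high r mostly restates the difference between HEL and unstimulated arrays, and it is given as a description. Tnf was most like Dnttip2 and Wsb2 (Pearson r = 0.992 each), Stat6, Gfi1 and Junb (r = 0.989 each). Of these, Gfi1 had the widest changes, 3.82 in IgMG and 5.25 in IgM cells. Ltb was most like Mtmr14 (r = 0.996), Fkbp7 (0.990), Cmtr1 (0.987), Slc39a3 and Tmem223 (0.983 each), with changes between -0.75 and -0.44. The 102630_s_at probe set of Lta was most like Herc1 (0.975), Clock (0.974), Fam8a1, Ylpm1 (0.962 each) and Sec14l1 (0.930), which share its low reading on unstimulated IgM array 1. Tnf and Ltb themselves had r = -0.91.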

How the data were processed

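RNA of sorted B cells was measured on 8 single-colour oligonucleotide arrays. For every array the authors deposited an intensity for each probe set, computed with MAS5 per the submitters' processing notes; the trimmed mean was near 150.1 on each array. Scaling to a common mean rests on arrays having similar totals, and dim probe sets are noisy. The number of arrays limits the precision.

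After 66 control probe sets were left out, log2(signal + 16) was computed and the brightest 60% of 12422 probe sets by mean over 8 arrays, 7453, were tested. Gene symbols came from the platform annotation (10833 probe sets with 1 symbol, 396 with several, 1193 with none), and the brightest probe set stands for a gene that has several. The tests were two-sided, with limma 3.58.1 in R 4.3.3, 1 coefficient per group, a variance trend and Benjamini-Hochberg adjustment. There were 4 residual and 4.87 prior degrees of freedom. The code was tested on simulated data.

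The members, gene lists and alternatives were chosen with earlier results of these data known. The text names the members, 8 genes of their pathway and the 5 probe sets most like each member. From each list, up to 5 genes with the smallest p in IgM cells and 3 in IgMG cells were eligible, unless said otherwise. Of these, mostly genes with a call were named, so the named genes do not stand for their lists. The counts cover every tested gene of a list. Tnfrsf14 and Nfkbil1 had no probe set with 1 symbol. Experiment numbers were the same in all groups, and the labels do not say whether equal numbers share mice or sorts. The main fit did not pair the arrays. Deviations from the group means had r of -0.034, -0.086, -0.055 and -0.16, which cannot settle whether the arrays were paired. Leaving out both arrays that stand apart, the Gapdh covariate and a crossed pairing were added after seeing the data. Protein and probe sequences were not used here.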

Additional observations from a re-analysis of the deposited data

How the results depend on the processing

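The rise of Tnf and the fall of Ltb kept their direction under all 20 alternatives in cells of either receptor. The experiment number as a replicate block gave adjusted p of 0.0235 and 0.00333 for Tnf and 0.0119 and 0.00529 for Ltb in IgMG and IgM cells, and changed no other call of a member. It gave 273 and 869 calls in IgMG and IgM cells, and 3 between IgMG and IgM cells with HEL. With 1 array left out the log2 changes ranged from 1.24 to 1.61 (Tnf, IgMG), 1.69 to 2.15 (Tnf, IgM), -1.16 to -1.01 (Ltb, IgMG) and -1.29 to -0.90 (Ltb, IgM). The member values that changed sign, all without a call, were comparisons between receptors and the Lta response in IgMG cells. For Ltb, quantile normalization gave -0.078 for the difference of responses and -0.067 with HEL, centring on the median -0.056 unstimulated, and leaving out both arrays that stand apart -0.062 unstimulated; with 1 array left out these 3 ranged from -0.18 to 0.21, -0.18 to 0.21 and -0.062 to 0.080. For Tnf, the Gapdh covariate gave 0.023 for the difference of responses, and with 1 array left out the unstimulated difference ranged from -0.23 to 0.15. For Lta, averaged probe sets gave 0.087 in IgMG cells; on 100327_at the difference of responses was 0.032 when centred and 0.011 with quantiles, and with 1 array left out it ranged from -0.35 to 0.21, from -0.39 to 0.040 with HEL and from -0.39 to 0.17 unstimulated. Calls in IgMG cells numbered 256 with no filter, 231 with no trend, 163 from only the 4 arrays compared and 163 with the Gapdh covariate, which gave 603 in IgM cells. With HEL, calls between receptors numbered 0 at offset 1, 6 at offset 64, 2 centred, 0 with no filter, no trend or the covariate, and 4 from 4 arrays. The difference of responses had 1 call at offset 64 and 4 without both arrays, and the unstimulated comparison had 17 without both arrays and 0 under the crossed pairing. With 1 array left out, calls ranged from 58 to 368 in IgMG cells, 341 to 1278 in IgM cells, 0 to 13 for the difference, 0 to 5 with HEL and 0 to 32 unstimulated. A group left with 1 array was assumed to vary like the others. Changes past no threshold that turned sign were, in IgMG cells, Ets1 (-0.018 with quantiles, -0.11 with the covariate, -0.067 to 0.086 with 1 array left out), Rela (-0.064 with quantiles, -0.24 without both arrays, -0.24 to 0.28), Bcl3 (0.075 with the covariate, -0.61 to 0.16) and Tnfrsf1a (0.16 without both arrays, -0.95 to 0.16). In IgM cells they were Hnrnpd (0.11 with the covariate, 0.036 without both arrays, -0.14 to 0.036) and Tnfrsf1a (-0.64 to 0.85). Birc2, called in IgM cells, was 0.027 with its probe sets averaged. The causes were not tested.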
